A study of Mus musculus with 12 samples.

Results

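The giant cytoskeletal scaffold genes are 9 mouse genes with very long transcripts: the ankyrins Ank2 and Ank3, the spectrins Sptan1 and Sptbn1, the spectraplakins Macf1 and Dst, the microtubule-associated protein genes Map1a and Map1b, and the dynein heavy chain gene Dync1h1. They were taken by symbol from a table of 21492 genes, in which each symbol had 1 row. All 9 passed the filter on low values in every comparison. The samples came from striatal synaptosomes, pinched-off nerve endings that keep a patch of the postsynaptic side, prepared from C57BL/6J males aged 70 days (P70). There were 4 groups: Shank3 TG polysome, Shank3 TG input, wild-type (WT) polysome and WT input, with 3 libraries each. TG mice carry a Shank3 transgene, whose promoter and line are not given in the labels. Input is total RNA of the synaptosomes, and polysome is RNA from polyribosomes (transcripts carrying several ribosomes) of such a preparation. Whether the libraries of a group came from separate or pooled animals is not stated, so a p-value here weighs a difference against library-to-library spread, part or all of which may be technical. Shank3, as a check of the labels, had 5012, 12626 and 12252 normalized counts in TG polysome libraries of numbers 1, 2 and 3, against 1501, 3702 and 5848 in WT polysome, and 5456, 17501 and 14107 in TG input, against 2121, 4162 and 5858 in WT input. It was higher in TG for every number, although TG number 1 was below WT number 3 in both fractions.

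Ankyrins are adaptor proteins that hold ion channels and adhesion molecules to the spectrin lattice under the membrane. Ank2 encodes ankyrin-B of axons, and Ank3 encodes ankyrin-G, the organizer of the axon initial segment. Sptan1 and Sptbn1 encode an alpha and a beta spectrin, which assemble into the tetramers of that lattice, while Macf1 and Dst encode linkers that bridge actin filaments and microtubules. Map1a and Map1b encode large microtubule-binding proteins, the first typical of mature dendrites and the second of growing axons. Dync1h1 encodes the motor subunit of cytoplasmic dynein, which carries cargo toward microtubule minus ends. Transcripts of these genes are known from brain as partners of FMRP, which represses the translation of the mRNAs it binds and is lost in fragile X syndrome. FMRP binding was not measured in these samples.

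The genes are spread over 8 chromosomes of GRCm38. In GENCODE M21, Ank2 lies on chromosome 3 at 126921612 to 127499350 (minus strand), Ank3 on chromosome 10 at 69398773 to 70027438 (plus), Macf1 on chromosome 4 at 123349633 to 123684360 (minus) and Dst on chromosome 1 at 33908225 to 34308661 (plus). Map1a and Sptan1 are both on chromosome 2, at 121289600 to 121310832 (plus) and at 29965560 to 30031451 (plus). Map1b lies on chromosome 13 at 99421446 to 99516540 (minus), Sptbn1 on chromosome 11 at 30099395 to 30268175 (minus) and Dync1h1 on chromosome 12 at 110601452 to 110666945 (plus). The exons of a gene, merged over its transcripts, add up to 12166 bases in Map1a and 41155 bases in Dst, the shortest and the longest of the 9, against a median of 3539 bases over the matched genes of the table. The genes differ in build. Map1a and Map1b have at most 7 exons per coding transcript, whereas Dst has up to 103 and Macf1 up to 102. Ank3 is annotated with 47 transcripts and Map1a with 4, and the deposited values are per gene, so isoforms are not resolved. At most 1.42% of the 31-base sequences of a member (Dst) also occur in another gene.

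FMRP is known to bind G-rich RNA and to occupy coding sequence. To show the G-rich stretches these transcripts carry, the letters GGA were searched on the coding strand of the longest annotated coding sequence of each gene, and the 30-base window inside 1 exon that holds the most of them is printed for 6 genes, 5′ to 3′, with each GGA in capitals (overlaps allowed).
Map1a (exon 5, chr2:121300714-121300743, plus strand, 7 GGA): GGAGGAgGGAaGGAaGGAGGAgaaaaaGGA
Map1b (exon 5, chr13:99433345-99433374, minus strand, 5 GGA): GGAggctgaGGAaccGGAagaGGAcggGGA
Ank3 (exon 6 of its transcript, chr10:69991208-69991237, plus strand, 5 GGA): GGAgtcGGAGGAGGAGGAgcccaaatcagc
Macf1 (exon 63, chr4:123395052-123395081, minus strand, 5 GGA): GGAGGAGGAgctggcagccagtGGAGGAca
Dst (exon 27, chr1:34167882-34167911, plus strand, 5 GGA): GGAGGAtttcctGGAGGAtagccaGGAatc
Dync1h1 (exon 16, chr12:110627029-110627058, plus strand, 4 GGA): GGAGGAcagagctgtGGAaagccGGAccac
Ank2, Sptan1 and Sptbn1 also reached 4 in a window. A window with at least 7 GGA occurs in 1.58% of the 16761 coding genes in the table, one with at least 5 in 11.5% and one with at least 4 in 42.5%. For these shares a window could span joined exons, unlike the printed windows, and longer sequences offer more windows. Among the 283 genes with a coding sequence at least as long as the shortest of the members, the median best window held 4 GGA. Their median density was 22.9 per kb. Counted per length, GGA occurred 31.6 times per kb of coding sequence in Map1a, 30.8 times in Sptan1 and 22.1 times in Ank3, against a median of 23.9 over the coding genes. The share of coding genes with at least as high a density was 12.2% for Map1a and 63.2% for Ank3, so the members did not share a high GGA density. The longest annotated coding sequence of Ank3 has 8612 bases, which is no whole number of codons, so it may be incomplete, and the window and density of Ank3 rest on it. These are descriptions of sequence, and no match here is a measured FMRP site.

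The 9 genes were abundant. Their mean over the 12 libraries lay above that of 94.1% (Macf1) to 99.7% (Map1b) of the 16962 genes tested between fractions. Values are the authors' normalized estimated counts, which grow with transcript length, so levels of different genes were compared per kb of the longest coding transcript. On this scale Map1b came first in WT input with 8880 ± 1658 normalized counts per kb, before Sptan1 with 7026 ± 361, Map1a with 4833 ± 1581, Dync1h1 with 4488 ± 2551, Ank2 with 2617 ± 329, Sptbn1 with 2325 ± 251, Ank3 with 1847 ± 160, Dst with 763 ± 44.9 and Macf1 with 483 ± 72.6 (mean ± SD, n = 3). The libraries of neighbours in this order overlapped between Map1a and Dync1h1 and between Ank2 and Sptbn1. In TG input the order was the same except that Dync1h1 (6218 ± 4308 per kb) stood before Map1a (4267 ± 59.4), and all neighbours overlapped apart from Map1a with Ank2 and Ank3 with Dst. On this scale the place of Dync1h1 differed between fractions. In the polysome libraries it came seventh, with 1234 ± 278 per kb in TG and 1228 ± 138 per kb in WT. Sptan1 led there, with 3932 ± 286 per kb in TG and 4251 ± 874 in WT, but its libraries overlapped those of Map1b, which had 3661 ± 345 in TG and 4163 ± 973 in WT. The order depended on the length used. Per kb of merged exons, Map1b led in polysome, with 2728 in TG and 3102 in WT, before Sptan1 with 2360 and 2551. Dync1h1 (1130 in TG, 1124 in WT) then stood above Sptbn1 (686 and 689), Ank2 (608 and 652) and Ank3 (450 and 432). In WT input Map1a (4697) then passed Sptan1 (4216), and Sptbn1 (1210) passed Ank2 (1070). Together the 9 genes held 0.428% ± 0.0422 of the signal of nuclear protein-coding genes in TG polysome and 0.842% ± 0.194 in TG input libraries, and 0.455% ± 0.0323 in WT polysome and 0.821% ± 0.153 in WT input libraries (mean ± SD, n = 3).

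**Figure D1:**
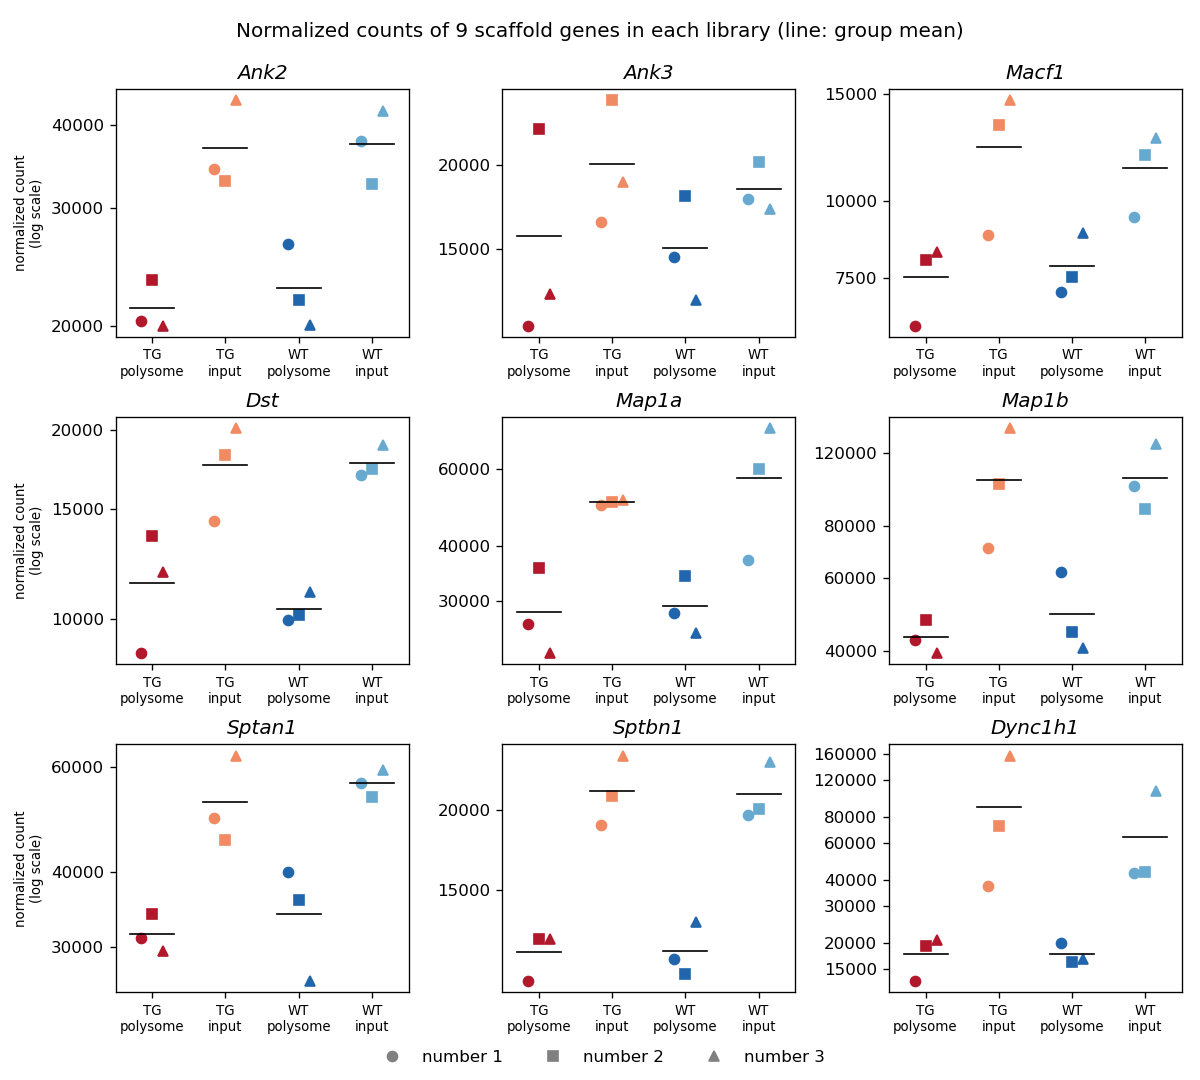
Normalized counts of the 9 scaffold genes (vertical axis, log scale) in TG polysome, TG input, WT polysome and WT input libraries, with 1 point per library shaped by its number and a line at the group mean. For 7 genes all 6 polysome libraries lie below all 6 input libraries, and the input libraries of number 3 stand highest for Dync1h1, at 157542 in TG and 106608 in WT.

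The comparison of polysome with input asked which scaffold transcripts are more or less abundant on synaptosomal polyribosomes than in the synaptosome as a whole. All 9 genes had lower values in polysome than in input in both genotypes. By the test 8 of 9 fell in TG libraries, with Ank3 the exception, and 7 of 9 fell in WT libraries, with Ank3 and Macf1 the exceptions (limma, Benjamini-Hochberg over 16962 genes). Falls were called for 9.86% of all genes tested in TG and for 8.59% in WT. The members' median log2 difference was -0.79 in TG and -0.77 in WT, against 0.030 and 0.026 over all genes tested. Since libraries were scaled to each other, a fall is a change relative to other genes, not the fraction of a transcript's copies that ribosomes held. In bulk RNA, fewer terminals of a kind and less RNA per terminal cannot be told apart.

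Dync1h1 fell furthest. It had 13158, 19359 and 20586 normalized counts in TG polysome libraries, against 37303, 72707 and 157542 in TG input libraries of numbers 1, 2 and 3. WT libraries had 19876, 16233 and 16706 in polysome, against 43005, 43475 and 106608 in input. The fractions did not overlap, and the spread was in the input: the highest input library was 4.22 times the lowest in TG and 2.48 times in WT, while the polysome libraries of a genotype stayed within 1.56 and 1.22 times. The log2 difference was -2.12 ± 0.45 in TG (SE, adjusted p = 0.0102, limma) and -1.74 ± 0.45 in WT (adjusted p = 0.0262). Of all genes tested, 0.578% in TG and 0.855% in WT had a lower difference. Polysome values were 35.3%, 26.6% and 13.1% of input in the TG pairs of numbers 1, 2 and 3, and 46.2%, 37.3% and 15.7% in the WT pairs, so number 3 gave the deepest fall in both genotypes. Without WT input number 3 the WT difference was -1.30 and did not pass (adjusted p = 0.116).

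Map1b and Map1a followed. Map1b had 42510, 47617 and 39570 normalized counts in TG polysome, against 70750, 101060 and 138003 in TG input. The WT values were 62247, 44464 and 40754 in polysome, against 99937, 88207 and 126424 in input. In each genotype the polysome libraries were below the input libraries (across all genes tested, this held for 18.0% in TG and 18.5% in WT), and the log2 difference was -1.21 ± 0.25 in TG (adjusted p = 0.00959) and -1.10 ± 0.25 in WT (adjusted p = 0.0164, both limma). Map1a had 26657, 35760 and 22888 in TG polysome, against 49707, 50569 and 51098 in TG input, where the 3 libraries were nearly alike. In WT polysome it had 28241, 34318 and 25477, against 37209, 59932 and 74295 in WT input. Its WT input libraries ranged 2.00 times from lowest to highest, yet the fractions again did not overlap. The log2 difference of Map1a was -0.85 ± 0.25 in TG (adjusted p = 0.0330) and -0.92 ± 0.25 in WT (adjusted p = 0.0301, both limma).

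Both spectrin genes fell. Sptbn1 varied least of the 9 genes over the 6 pairs of same-numbered libraries, with polysome at 57.0%, 59.9% and 51.8% of input in TG and at 59.7%, 55.2% and 56.1% in WT. It had 10830, 12594 and 12593 normalized counts in TG polysome, against 18986, 21031 and 24337 in TG input. Its WT libraries held 11716, 11082 and 13355 in polysome, against 19636, 20081 and 23792 in input. The log2 difference was -0.83 ± 0.16 in TG (adjusted p = 0.00616) and -0.81 ± 0.16 in WT (adjusted p = 0.00813, both limma), with no overlap of the fractions. Sptan1 had 31067, 34021 and 29498 in TG polysome, against 49212, 45299 and 62677 in TG input. The WT libraries of Sptan1 had 39992, 35921 and 26340 in polysome, against 56315, 53459 and 59240 in input. The fractions of Sptan1 were also apart, and the log2 difference was -0.72 ± 0.19 in TG (adjusted p = 0.0229) and -0.75 ± 0.19 in WT (adjusted p = 0.0241, both limma). The log2 ratio of Sptan1 to Sptbn1 within a library was 1.39 ± 0.15 in TG polysome and 1.28 ± 0.15 in TG input, and 1.48 ± 0.44 in WT polysome and 1.42 ± 0.10 in WT input (mean ± SD, n = 3), so it moved by less than 1 SD.

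Of the ankyrin genes, Ank2 passed in both genotypes without the block and Ank3 in neither. Their falls were not tested against each other. Ank2 had 20373, 23395 and 20032 normalized counts in TG polysome, against 34355, 32944 and 43489 in TG input. For Ank2 in WT the values were 26554, 21857 and 20085 in polysome, against 37762, 32576 and 41974 in input. It fell without overlap, by a log2 difference of -0.79 ± 0.18 in TG (adjusted p = 0.0117) and -0.72 ± 0.18 in WT (adjusted p = 0.0209, both limma). Ank3 had 11544, 22590 and 12848 in TG polysome, against 16420, 24910 and 18837 in TG input. WT polysome libraries had 14572, 17973 and 12582 of Ank3, against 17799, 20210 and 17191 in input. Its fractions overlapped in both genotypes: the polysome library of number 2 was above the input libraries of numbers 1 and 3. The log2 difference of Ank3 was -0.40 ± 0.25 in TG (adjusted p = 0.290) and -0.30 ± 0.25 in WT (adjusted p = 0.452, both limma), and neither passed. Within each of the 6 pairs Ank3 was lower in polysome, at 70.3%, 90.7% and 68.2% of input in TG and 81.9%, 88.9% and 73.2% in WT, and with a replicate block it passed in TG (adjusted p = 0.0389) but not in WT (adjusted p = 0.103). The log2 ratio of Ank2 to Ank3 was lower in polysome than in input in every pair, with means of 0.50 ± 0.40 in TG polysome and 0.89 ± 0.43 in TG input, and 0.61 ± 0.30 in WT polysome and 1.02 ± 0.30 in WT input (SD, n = 3).

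Both spectraplakin genes had lower values in polysome than in input in all 6 pairs. Dst had 8821, 13559 and 11893 normalized counts in TG polysome, against 14314, 18308 and 20178 in TG input. Dst in WT had 9956, 10147 and 11031 in polysome, against 16967, 17372 and 18945 in input, and its polysome values were 58.7%, 58.4% and 58.2% of input, a narrow range. The log2 difference was -0.63 ± 0.18 in TG (adjusted p = 0.0329) and -0.77 ± 0.18 in WT (adjusted p = 0.0181, both limma). Macf1 had 6264, 8022 and 8278 in TG polysome, against 8816, 13315 and 14618 in TG input. WT libraries of Macf1 had 7098, 7514 and 8866 in polysome, against 9426, 11920 and 12691 in input. The fractions of Macf1 were apart within each genotype and touched across genotypes. Its log2 difference of -0.68 ± 0.21 passed in TG (adjusted p = 0.0399), and that of -0.53 ± 0.21 in WT did not (adjusted p = 0.106, both limma). With a replicate block Macf1 passed in WT as well (adjusted p = 0.0127).

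Over both genotypes, 7 of the 9 genes had all 6 polysome libraries below all 6 input libraries, which held for 12.1% of all genes tested. With the replicate block 9 of 9 were called lower in TG and 8 of 9 in WT, against 16.6% and 15.9% of all genes. Without the libraries of number 2 the blocked calls of members were 4 in TG and 0 in WT. Over all genes they were then 1321 in TG and 375 in WT, against 5638 and 5052 with all libraries. Without the libraries of number 1, members had 5 blocked calls in TG and 7 in WT. With no block 1 member passed in WT without WT input number 3, and 2 passed without WT polysome number 2 or number 3. Genes called in WT fell from 2367 to 648, 1288 and 812 in these settings, in that order. In TG 4 passed without TG input number 3, TG polysome number 1 or TG polysome number 3, and 5 without TG input number 2. Genes called in TG fell from 3062 to 1340, 1358, 1205 and 1552 in these settings, in that order. Calls were thus lost across all genes, not among the members alone. The sign of all 9 differences stayed negative in both genotypes with any single library left out. The median of the members was -0.73, -0.50 and -1.09 in the TG pairs of numbers 1, 2 and 3, and -0.51, -0.78 and -1.06 in the WT pairs.

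**Figure D2:**
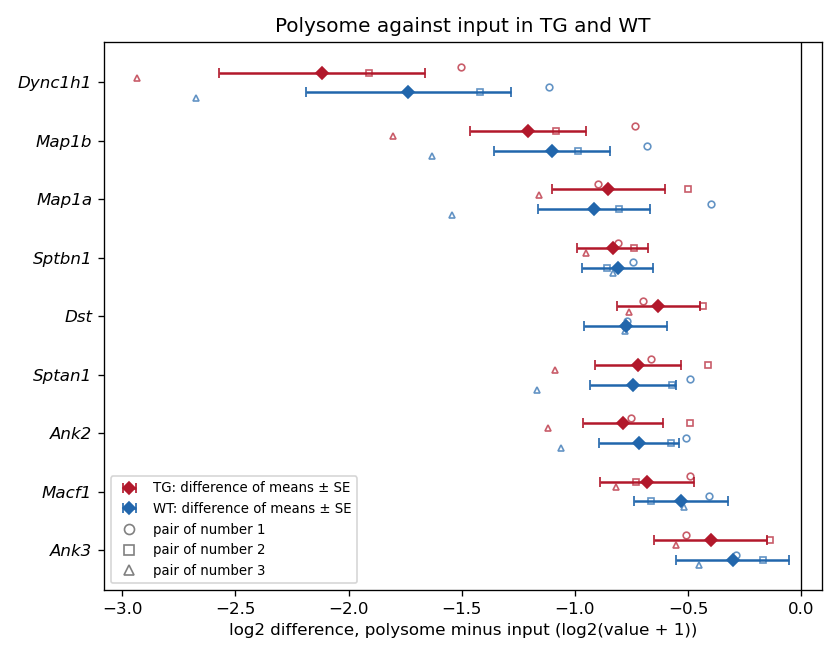
Log2 difference of polysome minus input (horizontal axis, on log2 of the value + 1) for the 9 genes (vertical axis) in TG and WT, with diamonds and bars for the difference of means ± SE and open symbols for the pairs of libraries of the same number. All symbols lie below 0, with differences of means from -2.12 for Dync1h1 in TG to -0.30 for Ank3 in WT and pairs from -2.94 for Dync1h1 to -0.14 for Ank3, both in TG.

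Long genes were lower in polysome throughout the table. Across the 16951 genes with an exonic length, Spearman's rho between length and the log2 difference was -0.35 in TG and -0.36 in WT, given as a description over genes that share the same libraries. In the decile of genes with the shortest exons in sum the median difference was 0.35 in TG and 0.37 in WT, and in the decile with the longest, which holds all 9 members, it was -0.41 in TG and -0.40 in WT. Among the 839 genes at least as long as Map1a, the shortest member, falls were called for 35.9% in TG and 30.8% in WT. After removal of the trend on exonic length, the members' median was -0.30 in TG and -0.31 in WT. Dync1h1 remained at -1.63 in TG and -1.28 in WT, Map1b at -0.72 and -0.64, and Map1a at -0.47 and -0.55. The longest members did not keep their sign: Ank2 stood at 0.014 in TG and 0.037 in WT, Dst at 0.23 and 0.034, Macf1 at 0.080 and 0.18, and Ank3 at 0.40 and 0.45 (values with no test). With the length of the longest coding transcript in place of exonic length, Ank2 was at -0.15 in TG and -0.13 in WT. Dst was at 0.22 in TG and kept its negative sign in WT. The sign of Ank2, and that of Dst in WT, after the correction thus depends on which length is used. The part of transcript length in the falls was not tested beyond these values.

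**Figure D3:**
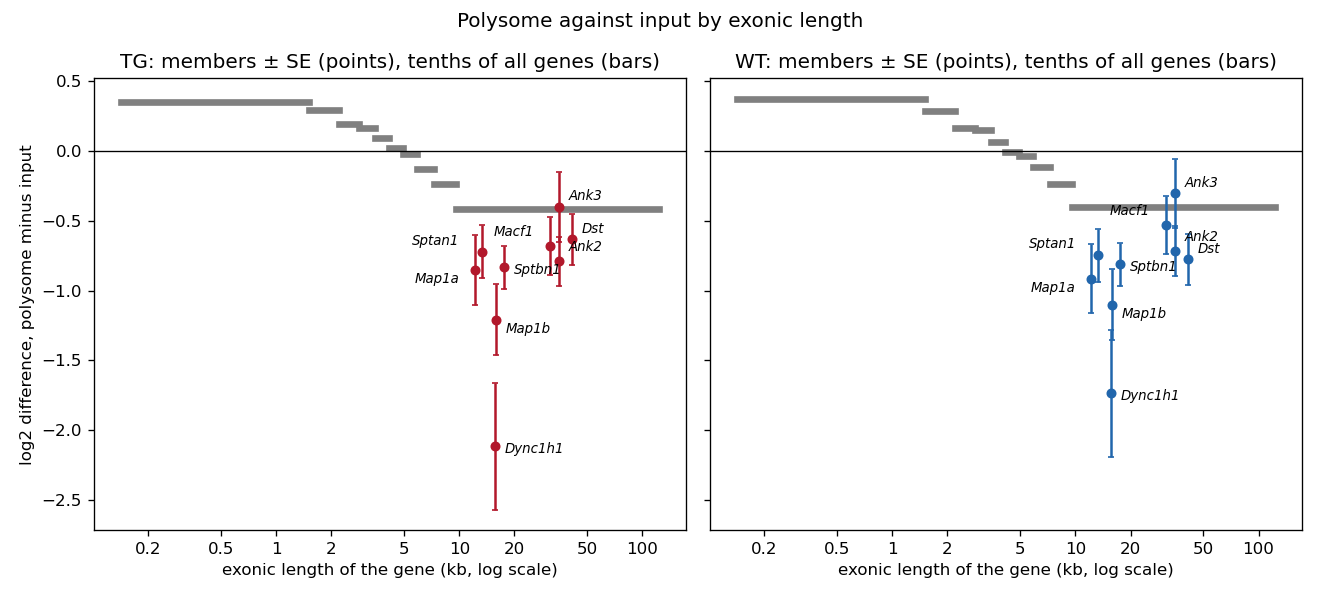
Log2 difference of polysome minus input (vertical axis) against exonic length (horizontal axis, kb, log scale) in TG (left) and WT (right), with the 9 genes as points ± SE and each decile of all genes by length as a grey bar at its median. The bars descend from 0.35 to -0.41 in TG and from 0.37 to -0.40 in WT, and the 8 members other than Ank3 lie below the bar of the longest decile, Dync1h1 furthest.

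Other genes of these cytoskeletal systems were taken from lists of known partners. Of the spectrin and ankyrin skeleton, 2 of 16 tested genes fell and 0 rose in each genotype, with a median of -0.39 in both. Over all genes, falls were called for 9.86% in TG and 8.59% in WT, and with the block for 16.6% and 15.9%. With the replicate block 8 fell and 1 rose in TG, and 5 fell and 0 rose in WT; over all genes, blocked rises were called for 16.7% in TG and 13.9% in WT. Without the block the WT falls were those of the adducin gene Add3 (log2 difference -0.71 ± 0.18, adjusted p = 0.0249) and the axonal beta spectrin gene Sptbn4 (-0.67 ± 0.19, adjusted p = 0.0379, both limma). Among 12 membrane proteins that bind ankyrins, 2 fell in TG and 3 in WT, with medians of -0.49 and -0.51, and with the block 5 fell in TG and 6 in WT while 2 rose in each genotype. The WT falls without the block were those of the sodium channel genes Scn8a (-0.83 ± 0.21), Scn2a (-0.71 ± 0.21) and Scn1a (-0.66 ± 0.19). None of the 4 plakin genes tested passed in either genotype without the block. Dsp, which encodes desmoplakin and was near the filter with 7.49 normalized counts in WT polysome and 32.5 in WT input, had the smallest p in WT (-1.96 ± 0.65, adjusted p = 0.0624, limma) and was the 1 plakin gene to pass with the block, in WT (adjusted p = 0.0365) and not in TG (adjusted p = 0.570).

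Of 18 other microtubule-associated genes, 6 fell in TG and 5 in WT, and 0 rose (medians -0.41 and -0.38), while with the block 8 fell in each genotype and 1 rose in WT. Over all genes, falls were called for 9.86% in TG and 8.59% in WT, and with the block for 16.6% and 15.9%. Mapt, which encodes tau, fell by a log2 difference of -1.34 ± 0.22 in TG (adjusted p = 0.00328) and -1.23 ± 0.22 in WT (adjusted p = 0.00584, both limma). Map2, the dendritic relative of tau, fell in TG (adjusted p = 0.00705) and by -0.93 ± 0.19 in WT (adjusted p = 0.0112, both limma). The called genes with the smallest WT falls were Map7d2 (-0.82 ± 0.19) and Camsap2 (-0.74 ± 0.18), which encodes a binder of microtubule minus ends. Of 14 tubulin genes 3 fell in each genotype and 0 rose, with medians of -0.36 in TG and -0.61 in WT, and with the block 6 fell in TG and 8 in WT. Tuba1a, an alpha tubulin gene of neurons with a short exonic length of 1803 bases and 24758 ± 4481 normalized counts in TG polysome and 65796 ± 21307 in TG input, fell by -1.38 ± 0.28 in TG (adjusted p = 0.00857) and -1.34 ± 0.28 in WT (adjusted p = 0.0115, both limma). Tuba1b (-1.02 ± 0.27) and Tubb4b (-0.90 ± 0.26) also fell in WT. Tubulin genes resemble each other in sequence, so their single values are uncertain.

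The partners of Dync1h1 in the dynein and dynactin complexes did not all fall. Of 27 genes, 5 fell and 2 rose in TG, and 3 fell and 1 rose in WT, with medians of -0.033 and -0.037. Over all genes, falls were called for 9.86% in TG and 8.59% in WT, and rises for 8.19% and 5.36%. With the block 6 fell and 4 rose in TG, and 8 fell and 4 rose in WT. Dctn1, the largest dynactin subunit, fell by a log2 difference of -1.08 ± 0.25 in TG (adjusted p = 0.0130) and -1.07 ± 0.25 in WT (adjusted p = 0.0168, both limma). Dync1i2, an intermediate chain gene, fell by -0.78 ± 0.24 in TG and -0.85 ± 0.24 in WT, and the cargo adaptor gene Bicd1 by -0.66 ± 0.16 in TG and -0.64 ± 0.16 in WT. Dynll2, a light chain gene, rose in WT, with 2485 ± 215 normalized counts in polysome and 1607 ± 439 in input (0.66 ± 0.20, adjusted p = 0.0438), and did not pass in TG (0.46 ± 0.20, adjusted p = 0.123, both limma).

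Among 38 other transcripts known as FMRP partners, recalled from published catalogues rather than taken from these files, 28 fell in TG and 23 in WT, and 0 rose, with medians of -0.93 and -0.78. With the block 30 fell in TG and 28 in WT, and 1 rose in WT. Over all genes, falls were called for 9.86% in TG and 8.59% in WT, and with the block for 16.6% and 15.9%. Mycbp2, a giant ubiquitin ligase gene of synapses, fell by a log2 difference of -1.53 ± 0.18 in TG (adjusted p = 0.00053) and -1.55 ± 0.18 in WT (adjusted p = 0.000473, both limma). Unc13a, which primes synaptic vesicles, fell by -1.49 ± 0.21 in TG and -1.55 ± 0.21 in WT. The called genes with the smallest falls in WT were Apc (-0.62 ± 0.17) and Mtor (-0.59 ± 0.18). The genes named here are long, from 10109 exonic bases in Mtor to 19248 in Mycbp2. Among the 839 genes of any kind at least as long as Map1a, falls without the block were called for 35.9% in TG and 30.8% in WT. Their medians were -0.50 and -0.47. The part of length in the falls of this list was not tested. The members' own medians were -0.79 in TG and -0.77 in WT, and this list was chosen with results of these data known.

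The genotype comparison within polysome libraries asked whether scaffold transcripts on synaptosomal polyribosomes differ with the Shank3 transgene. Without the replicate block Shank3 itself was not called, at a log2 difference of 1.53 ± 0.52 in polysome and 1.57 ± 0.49 in input (SE, limma). A difference of that size can thus go uncalled in these fits. No member passed, 0% of all genes were called in either direction, and 53 of 16312 genes had an unadjusted p under 0.05 (limma). With the replicate block 438 genes did, 1 gene was called and again no member passed. The fit without the block leaves spread between numbers in its error, so few calls do not show that the genotypes are alike. The members' log2 differences of TG minus WT ran from -0.16 ± 0.22 for Map1b (95% interval -0.66 to 0.33) to 0.12 ± 0.19 for Dst (-0.32 to 0.56), with a median of -0.060 against 0.0100 over all genes. Between these stood Ank2 at -0.096, Sptan1 at -0.093, Macf1 at -0.062, Map1a at -0.060, Dync1h1 at -0.013, Sptbn1 at -0.0046 and Ank3 at 0.0080, the last of which changed sign with TMM scaling. The groups overlapped for all 9 genes, while 2.37% of all genes had groups that did not. In number 1 all 9 were lower in TG than in WT, and in number 2, 8 of 9 were higher, as were 4 of 9 in number 3. Medium spiny neuron markers were above 0 in TG minus WT for 14 of 14 genes (median 0.21), cortical excitatory neuron markers below 0 for 7 of 8 (median -0.13) and oligodendrocyte markers above 0 for 9 of 10 (median 0.10), with 0 called in each list. Over all genes tested, 53.4% had a difference above 0 in polysome. Genes of a list share the same libraries, so counts of signs over members or markers are not independent. The part of these markers in the members' differences was not tested.

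In input libraries the question was the same for the synaptosome as a whole. No member passed, 0% of all genes were called in either direction, and 80 of 16341 had an unadjusted p under 0.05 (limma). With the replicate block 445 did, and 0 were called. Dync1h1 had the largest difference, 0.37 ± 0.54 (95% interval -0.89 to 1.62), which was -0.17 without TG input number 3. The other members lay between -0.12 ± 0.25 for Map1a (-0.70 to 0.46) and 0.11 ± 0.19 for Ank3 (-0.32 to 0.54), with Sptan1 at -0.12, Map1b at -0.059, Dst at -0.026, Ank2 at -0.023, Sptbn1 at 0.017 and Macf1 at 0.089. The narrowest interval, that of Sptbn1, was -0.36 to 0.39 in the fit without the block. With the replicate block the SE was 0.095 for Sptbn1, against 0.16 without it. For Dync1h1 the SE was 0.18 with the block, against 0.54, and no member passed in the blocked fit either. The groups overlapped for all 9 genes, while 2.62% of all genes had groups that did not. In number 1, 1 of 9 genes was higher in TG than in WT, against 7 in number 2 and 8 in number 3. Here too 14 of 14 medium spiny neuron markers were above 0 in TG minus WT (median 0.21), as were 10 of 10 oligodendrocyte markers (median 0.13), and 8 of 8 cortical excitatory neuron markers were below 0 (median -0.17), with 0 called, and their part was not tested. Over all genes tested, 47.1% had a difference above 0 in input.

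**Figure D4:**
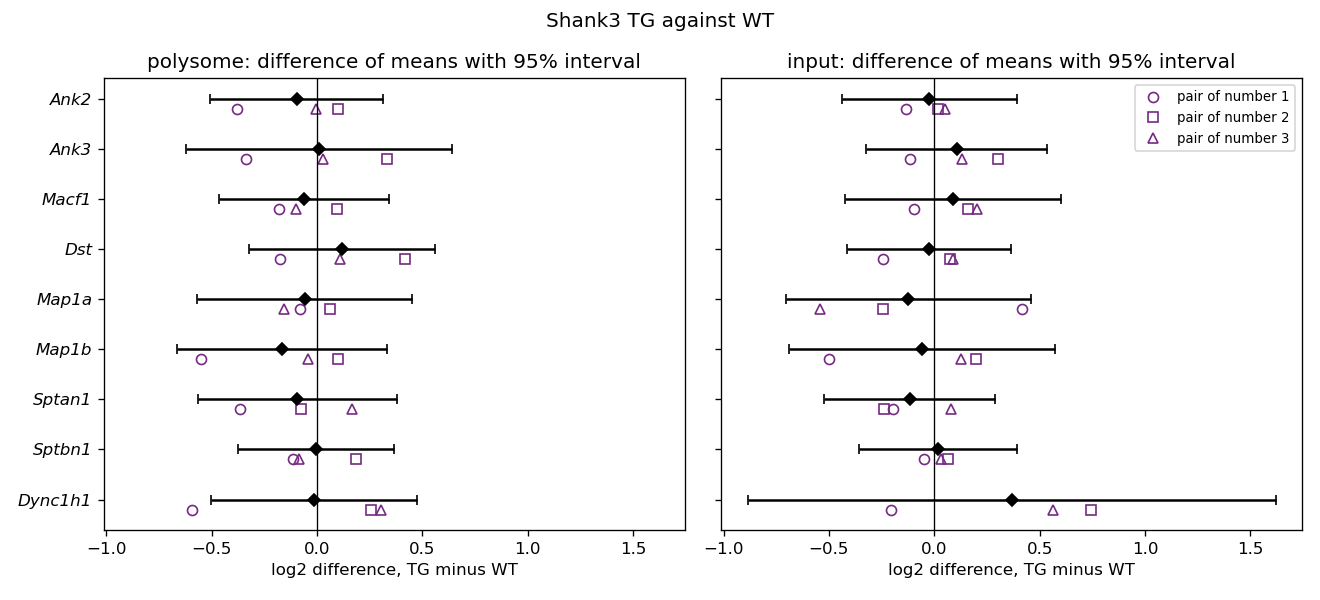
Log2 difference of TG minus WT (horizontal axis) for the 9 genes (vertical axis) in polysome (left) and input (right) libraries, with diamonds and bars for the difference of means and its 95% interval and open symbols for the pairs of the same number. Every interval, from the fit without the replicate block, includes 0, and that of Dync1h1 in input is the widest, from -0.89 to 1.62.

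A test of the interaction set the genotype difference in polysome against that in input. No member passed and 0% of all genes were called, with 94 of 16962 genes at an unadjusted p under 0.05 (limma). With the replicate block 209 genes were under 0.05, and 0 were called. The members' differences ran from -0.38 ± 0.64 for Dync1h1 (95% interval -1.77 to 1.01) to 0.14 ± 0.26 for Dst (-0.42 to 0.70), with a median of -0.073 against 0.016 over all genes. Macf1 stood at -0.15, Map1b at -0.11, Ank3 at -0.098, Ank2 at -0.073, Sptbn1 at -0.022, Sptan1 at 0.024 and Map1a at 0.063. The falls in TG and in WT were thus not shown to differ for any member, and the comparison with a call in TG alone, that of Macf1, had an interval of -0.79 to 0.49.

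Across the 12 libraries the 9 genes varied together to unequal degrees. The mean of their centred log2 values correlated with the single members at a Pearson r of 0.97 for Map1b, Dync1h1 and Sptbn1, 0.96 for Ank2 and Dst, 0.92 for Sptan1 and Macf1, 0.90 for Map1a and 0.65 for Ank3. These values are a description over 12 libraries that share fractions and replicate numbers, and each member is part of the mean. Among the 10968 other genes whose log2 level averaged 8 or more, the profiles most like this mean were those of 4932438A13Rik (r = 0.991, exonic length 32279 bases), Cdc42bpb (0.991, 7375 bases), Peg3 (0.989, 13324 bases), Smg1 (0.989, 23984 bases), Ubxn4 (0.987, 4659 bases), Fryl (0.987, 15192 bases), Herc1 (0.986, 27464 bases) and Myo9a (0.986, 13034 bases). Smg1 encodes a kinase of nonsense-mediated decay and Herc1 a giant ubiquitin ligase. The single gene nearest to Ank2 was Eif4g1 (r = 0.995), a translation initiation scaffold gene, and the nearest to Sptbn1 was Usp34 (r = 0.994). For Map1b it was Map7d2 (0.988), for Sptan1 Atp13a1 (0.993), for Map1a Klhdc7a (0.979), for Dst Huwe1 (0.973) and for Macf1 Zfp106 (0.971). For Dync1h1 it was Golgb1 (r = 0.993), which encodes a giant Golgi tether and had 2346, 2909 and 2998 normalized counts in TG polysome, against 4567, 6972 and 11618 in TG input. In WT Golgb1 had 2821, 2413 and 2444 in polysome, against 5028, 5821 and 10638 in input, so its input library of number 3 was also the highest in each genotype. Ank3, the gene with the weakest fall, was nearest to the calcium pump gene Atp2b1 (r = 0.969).

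Marker sums differed with number, with fraction and with genotype. Medium spiny neuron markers (14 genes, none at 0 in all libraries) summed to 473048 to 578302 normalized counts in the 4 libraries of number 2, against 226871 to 327545 in the others, and were higher in TG than in WT in all 6 pairs of a number and fraction. Between fractions 0 of the 14 were called without the block, and with it 6 rose and 4 fell in TG, and 5 rose and 3 fell in WT. Over all genes without the block, falls were called for 9.86% in TG and 8.59% in WT, and rises for 8.19% and 5.36%. The blocked shares were 16.6% and 15.9% for falls and 16.7% and 13.9% for rises. Ank3 was highest in number 2 within each group. Oligodendrocyte markers also peaked in number 2 (400859 to 479258, against 276014 to 322194). Cortical excitatory neuron markers (8 genes) were lowest in number 2, with sums of 47999 to 75283 against 73655 to 144603 elsewhere. Called between fractions without the block were 1 cortical marker higher and 1 lower in TG and 1 lower in WT, 2 of 10 oligodendrocyte markers higher in each genotype, 3 of 9 microglia markers higher in TG and 0 in WT, and 1 of 8 endothelial and mural markers higher in TG and 0 in WT. With the block 3 cortical markers were higher and 1 lower in TG, and 3 higher and 2 lower in WT. The blocked counts for oligodendrocyte markers were 4 higher and 2 lower in TG, and 4 higher and 1 lower in WT. Blocked microglia markers were higher for 5 in TG and 4 in WT, and endothelial and mural markers for 1 in each. Nuclear long noncoding RNAs (7 genes) summed to 6794 to 11145 in polysome and 16985 to 30664 in input, and 3 of 7 were called lower in TG and 2 of 7 in WT (4 and 3 with the block). Of 9 astrocyte markers 2 were called lower in each genotype without the block, and with it 3 lower and 2 higher in TG and 2 lower and 1 higher in WT, and their sums were 219959 to 365748 in polysome and 347047 to 405946 in input. The share of mitochondrial rRNA in the signal was 23.1% to 34.0% in polysome libraries and 39.1% to 46.8% in input libraries. The part of these shifts in the members' values was not tested.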

How the data were processed

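RNA of striatal synaptosomes (input) and of their polyribosomes was sequenced with a stranded total RNA kit, per the labels' protocols. The deposited table holds the authors' signal: estimated counts per gene, scaled between libraries. The submitters' processing notes name DESeq2 1.26.0, Salmon 1.1.0, R 3.6.2 and GRCm38. No source used here states the annotation or the scaling model, so a per-gene correction by the authors would be part of the values. Whole reads could not be recovered (17.5% to 29.4% of low values per library lay within 0.05 of a multiple of the commonest step), so depth is unknown. Of 21492 identifiers, 21465 matched GENCODE M21.

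limma 3.58.1 in R 4.3.3 was fitted to log2(value + 1) with a variance trend, for genes with a value of 10 in at least 3 fitted libraries, with Benjamini-Hochberg adjustment over all genes and a threshold of 0.05. Fold changes of low genes are understated on this scale. Genotype was fitted within the 6 libraries of a fraction, and polysome against input and the interaction in all 12. The fits were tested on simulated data. Same-numbered libraries deviated together from their group means (18 pairs, r = 0.24 to 0.55), so numbers were taken to pair libraries, although no label states what they mark. The 36 other pairs had r of -0.41 to -0.00088. Negative values there follow in part from centring on means of 3 libraries, so they are no independent contrast. Blocked values are given where they change a call.

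Alternatives were TMM scaling, other pseudocounts and filters, fits with no variance trend or on another set of libraries, a replicate block, removal of length trends (lowess) and leaving out libraries. The members and lists were chosen with earlier results of these data known. Outside the 9 members, Shank3 and the marker lists, the genes named are, per list, the 2 called genes with the lowest and the 2 with the highest log2 difference in WT (or the smallest p where none was called), and those with the highest Pearson r.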

Additional observations from a re-analysis of the deposited data

How the results depend on the processing

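The number of members called between fractions, and the sign of each member's difference, stayed close to the reported values with TMM scaling, other pseudocounts, other filters and no variance trend (7 called in WT, 7 or 8 in TG). TMM scaling moved the median of all genes by less than 0.1 on the log2 scale in every comparison, and turned Ank3 in TG against WT polysome to -0.00203. With the replicate block 5638 genes were called between fractions in TG and 5052 in WT, against 3062 and 2367 without it. For TG against WT in polysome 1 gene was called with the block, higher in TG and not a member. Beyond Ank3 in TG and Macf1 in WT the block changed no other call of a member. Fitted to the 6 TG libraries alone, 1700 genes and 5 members were called in TG.

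With all libraries of 1 number left out of the blocked fit, an alternative chosen after seeing the data, 1321 genes and 4 members were called in TG without number 2, and 5 members without number 1. In WT 375 genes and 0 members were called without number 2, and 3669 genes without number 3. With the trend on exonic length removed, the members' median was -0.30 in TG and -0.31 in WT, and signs turned for Ank2 (0.014 in TG, 0.037 in WT), Dst (0.23 in TG, 0.034 in WT), Macf1 (0.080 in TG, 0.18 in WT) and Ank3 (0.40 in TG, 0.45 in WT), of which Macf1 in WT and Ank3 had no call without the block. With the trend on the longest coding transcript removed, also chosen after seeing the data, the medians were -0.29 in TG and -0.38 in WT, and signs turned for Macf1 (0.17 in TG, 0.25 in WT), Ank3 (0.083 in TG, 0.15 in WT) and Dst (0.22 in TG).

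Leaving out single libraries gave 1205 to 3263 genes and 4 to 8 members called between fractions in TG, and 648 to 2566 genes and 1 to 7 members in WT, with member medians of -0.86 to -0.67 in TG and -0.83 to -0.71 in WT. The lowest gene counts came without TG polysome number 3 in TG (1205 genes) and without WT input number 3 in WT (648 genes). In TG, 1552 genes were called without TG input number 2, 1340 without TG input number 3 and 1358 without TG polysome number 1. In WT, 1375 were called without WT input number 2, 1288 without WT polysome number 2 and 812 without WT polysome number 3.

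For TG against WT in polysome, leaving out single libraries gave 0 to 1 genes and 0 members called, a member median of -0.15 to 0.065, and differences that crossed 0 for Ank2 -0.18 to 0.018, Ank3 -0.29 to 0.20, Macf1 -0.14 to 0.065, Dst -0.018 to 0.29, Map1a -0.24 to 0.084, Map1b -0.29 to 0.018, Sptan1 -0.27 to 0.033, Sptbn1 -0.063 to 0.072 and Dync1h1 -0.14 to 0.19. For TG against WT in input, leaving out single libraries gave 0 to 1 genes and 0 members called, a member median of -0.13 to 0.12, and differences that crossed 0 for Ank2 -0.15 to 0.063, Ank3 -0.062 to 0.24, Macf1 -0.055 to 0.31, Dst -0.13 to 0.12, Map1a -0.40 to 0.095, Map1b -0.29 to 0.19, Sptbn1 -0.078 to 0.10 and Dync1h1 -0.17 to 0.87. For the interaction, leaving out single libraries gave 0 to 2 genes and 0 members called, a member median of -0.15 to 0.073, and differences that crossed 0 for Ank2 -0.16 to 0.050, Ank3 -0.39 to 0.089, Map1a -0.15 to 0.34, Map1b -0.35 to 0.13, Sptan1 -0.15 to 0.16, Sptbn1 -0.11 to 0.073 and Dync1h1 -0.89 to 0.15. The cause of these changes was not tested. With 3 libraries a group, spread between libraries limits the genotype comparisons.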
